A study of Homo sapiens with 17 samples.

Results

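Full-length FOXA1 and FOXA1 lacking its CTD (FOXA1dCTD, with the CTD taken here as the C-terminal domain) were each mapped by Flag ChIP-seq in U2OS, a human osteosarcoma cell line. The pair takes up 4 of the 17 samples of the series, 2 biological replicates of each protein, and was chosen by the sample titles. Both groups carried a Flag-tagged factor under doxycycline control (Tet-on) and were induced with doxycycline for 4 days (500 ng/ml in the treatment field), so they share the tag, the drug and expression from a transgene. The genotype labels read Tet-on FOXA1 and Tet-on FOXA1dCTD; whether each line was a single clone is not stated, and an uninduced or untransfected sample with a peak list was not analysed here. Each group is represented by 1 peak list that combines both replicates, with 37532 peaks at full length and 50539 after deletion. Of these, 37219 and 50105 lay on chromosomes 1 to 22 and X and were compared. A peak called shared overlapped a peak of the other list by at least 1 bp: 20856 full-length and 20902 CTD-deleted peaks were shared, which left 16363 found only at full length and 29203 found only after deletion.

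FOXA1 is a forkhead transcription factor. Its forkhead domain binds DNA as a monomer at sequences around TGTTTAC, and FOXA proteins are known as pioneer factors because they can bind sites in closed chromatin, where a stretch of the C-terminal part has been described to contact core histones. In breast, prostate, liver and lung FOXA1 is known for binding mostly at enhancers far from gene starts. U2OS cells come from bone, so the mapped sites are those that an introduced factor reached in a mesenchymal tumour cell.

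The 2 lists did not end at the same limit, and neither sequencing depth nor read counts are known. The weakest peak had an irreproducible discovery rate (IDR, an estimate of how often a peak's rank fails to repeat in the other replicate) of 0.200 at full length and 0.0501 after deletion. At the stricter of these limits 11445 full-length peaks remained against all 50105. Over the peaks, the −log10 p values of both replicates had medians of 5.30 and 5.33 in the full-length list and of 4.39 and 8.00 in the CTD-deleted list. With 1 list per group there is no test between replicates, and the intervals given below (95%, Wilson for shares, Newcombe for differences, order statistics for medians) cover counting error over peaks only. Peak lists hold no measure of which protein was expressed, so the labels could not be checked against the FOXA1 level. The FOXA1 gene itself (chromosome 14, 37589552 to 37595249) held 1 full-length peak, at 37591377 to 37592724, and 0 CTD-deleted peaks.

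The clearest contrast between the lists lay at promoters, so the sequences of a few of the promoters concerned are given first. The following are the 250 bases before the annotated start of 5 genes, from RefSeq (GRCh38.p14), written 5′ to 3′ along the gene with every CG dinucleotide in capitals. The first 3 belong to the strongest peaks found only at full length whose summit lay in a promoter window, and the other 2 to the strongest such peaks found only after CTD deletion.
CENPC, chr4:67545504-67545753, minus strand: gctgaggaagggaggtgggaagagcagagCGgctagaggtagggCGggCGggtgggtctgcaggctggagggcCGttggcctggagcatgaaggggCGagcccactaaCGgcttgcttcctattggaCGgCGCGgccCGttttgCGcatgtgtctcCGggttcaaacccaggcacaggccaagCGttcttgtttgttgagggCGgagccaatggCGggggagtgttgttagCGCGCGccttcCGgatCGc
WIPI2, chr7:5189983-5190232, plus strand: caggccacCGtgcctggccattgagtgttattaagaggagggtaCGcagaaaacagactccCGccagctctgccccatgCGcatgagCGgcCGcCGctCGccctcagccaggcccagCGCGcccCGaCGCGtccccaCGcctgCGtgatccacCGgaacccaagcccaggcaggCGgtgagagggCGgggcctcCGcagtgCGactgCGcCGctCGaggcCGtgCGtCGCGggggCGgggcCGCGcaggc
CCDC86, chr11:60841863-60842112, plus strand: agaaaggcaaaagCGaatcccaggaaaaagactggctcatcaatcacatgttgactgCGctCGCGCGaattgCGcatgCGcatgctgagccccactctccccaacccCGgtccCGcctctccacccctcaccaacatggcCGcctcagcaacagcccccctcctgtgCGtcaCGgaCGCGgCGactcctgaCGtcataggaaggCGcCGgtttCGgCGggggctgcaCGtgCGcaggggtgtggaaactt
KRTAP20-2, chr21:30634956-30635205, plus strand: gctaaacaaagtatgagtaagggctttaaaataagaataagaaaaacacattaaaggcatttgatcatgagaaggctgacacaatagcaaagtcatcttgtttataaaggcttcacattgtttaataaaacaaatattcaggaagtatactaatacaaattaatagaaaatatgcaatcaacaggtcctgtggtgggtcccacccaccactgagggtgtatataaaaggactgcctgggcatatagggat
C4orf54, chr4:99657829-99658078, minus strand: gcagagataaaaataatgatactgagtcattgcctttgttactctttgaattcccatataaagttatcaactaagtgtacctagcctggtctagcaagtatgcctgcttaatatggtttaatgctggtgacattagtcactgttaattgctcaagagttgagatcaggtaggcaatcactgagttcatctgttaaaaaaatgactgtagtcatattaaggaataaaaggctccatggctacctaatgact

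CENPC encodes a centromere protein of the kinetochore and WIPI2 a protein of autophagosome formation. The CENPC peak (chromosome 4, 67545208 to 67545806) had −log10 p values of 9.57 and 16.01 in the 2 replicates, with its summit 32 bp from the start. The WIPI2 peak (chromosome 7, 5189633 to 5191064) had 8.88 and 16.2, with the summit 8 bp from the start. At CCDC86 (chromosome 11, 60841762 to 60842320) the values were 8.72 and 10.1. All 3 printed stretches are rich in CG, with 20, 30 and 22 such dinucleotides. KRTAP20-2 encodes a keratin-associated protein of hair. Its CTD-deleted peak (chromosome 21, 30634565 to 30636130) had −log10 p values of 11.3 and 21.1, and that of C4orf54 (chromosome 4, 99657686 to 99658191) had 8.60 and 8.47. Both of these stretches hold 0 CG dinucleotides. The third peak of the latter kind, at COL21A1, a collagen gene (chromosome 6, 56090740 to 56092013), had 6.95 and 14.8 over an upstream stretch with 2 CG. The 3 strongest promoter peaks shared by both lists lay at TNK2, a tyrosine kinase gene, at ZWILCH, another kinetochore gene, and at XPR1, a phosphate exporter gene. Their full-length −log10 p values were 18.4 and 20.0, 15.1 and 21.5, and 11.3 and 15.1; the overlapping CTD-deleted peaks had 14.9 and 25.2, 5.36 and 15.2, and 6.32 and 9.32. Absence from 1 list is a call at that list's limit: the CENPC, WIPI2 and CCDC86 peaks each overlapped a peak of both FOXA2 lists, full length and CTD deleted.

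Promoter windows ran from 250 bases before to 50 after an annotated start, with 22132 windows for 15812 of the 19974 protein-coding genes and none on chromosome 8, whose peaks still count in the totals of the shares at promoter windows. Of the full-length peaks, 1275 or 3.43% (3.25 to 3.62) overlapped such a window, against 327 or 0.653% (0.586 to 0.727) of the CTD-deleted peaks. The difference was -2.77 percentage points (-2.97 to -2.58). Of the 1275 full-length promoter peaks, 1006 were found only at full length, 6.15% (5.79 to 6.53) of that class. Among the shared peaks of the same list the share was 1.29% (1.15 to 1.45), 4.86 points lower (4.47 to 5.26). Peaks found only after CTD deletion had the lowest share, 133 peaks or 0.455% (0.384 to 0.539). Counted by gene, 1381 genes had a promoter under a full-length peak, 8.73% of those with a window, and 335 under a CTD-deleted peak, 2.12%. Of these, 1176 genes (7.44%) were overlapped at full length alone, 130 (0.822%) after deletion alone and 205 (1.3%) in both.

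Each list was also divided into 4 equal bins of peak strength, the lower −log10 p of both replicates. Strength was not matched between the lists. In the weakest bin of the full-length list 8.23% of the unshared and 1.59% of the shared peaks lay at promoters, and in the strongest bin 5.32% and 1.39%. In the CTD-deleted list the share over all peaks was 0.838% in the weakest and 0.407% in the strongest bin. At the stricter IDR limit in both lists 2.81% of the full-length peaks lay at promoters against 0.653%, and at an IDR of at most 0.01 the shares were 2.38% and 0.515%. With as many of the strongest CTD-deleted peaks as full-length peaks, the CTD-deleted share was 0.586%.

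Summits of the unshared full-length peaks gathered just before the start. Values for distances to starts leave out the peaks on chromosome 8, so they are over 15403 of the unshared full-length, 19497 of the shared full-length, 19538 of the shared CTD-deleted and 27317 of the unshared CTD-deleted peaks. The 250 bp before it held 482 of them, 31.3 per 1000 peaks, compared with 4.92 for shared full-length peaks, 4.76 for shared CTD-deleted peaks and 1.98 for peaks found only after deletion. From the median summit to the nearest start it was 65.7 kb (63.7 to 68.2) for peaks found only at full length, 93.5 kb (90.8 to 96.6) for shared peaks and 118 kb (115 to 122) for peaks found only after deletion. Most binding was thus far from starts in every class, and the promoter peaks are a small part of it. Of these 15403 unshared full-length summits 7.998% lay within 1 kb of a start. Only starts of the 15812 genes with a promoter window were searched, so a start of another gene can lie nearer.

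**Figure D1:**
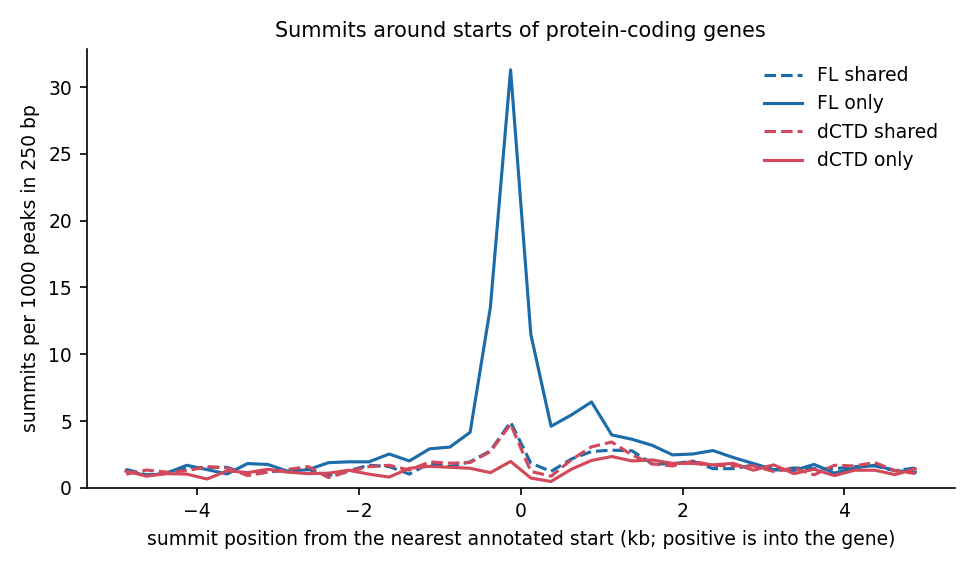
Number of summits per 1000 peaks in bins of 250 bp, by distance from the nearest annotated start of a protein-coding gene with a promoter window, without chromosome 8, for shared peaks (dashed) and peaks of 1 list only (solid) of full-length (FL, blue) and CTD-deleted (dCTD, red) FOXA1. Peaks found only at full length reach 31.3 in the bin before the start, while the other 3 classes stay between 1.98 and 4.92 there.

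Base composition of the windows differed with the list. The 1418 windows overlapped only at full length had a median G+C content of 63.3% and 25 CG dinucleotides, close to the 62.3% and 21 of all windows. The 154 windows overlapped only after CTD deletion had 49.3% and 10.5, and the 215 overlapped in both had 55.3% and 17. Windows under 50% G+C made up 8.25%, 50.6% and 34.4% of these classes, compared with 19.6% of all windows. Alternative starts of a gene can share sequence, so windows are not independent.

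The forkhead core was then looked for in the windows, as TGTTTAC or TATTTAC on either strand. The windows of the strongest promoter peaks named above held no such match, apart from a TATTTAC match at ZWILCH. The lines below give upstream matches to TGTTTAC, from the strongest peaks of each class among those over a match. Each has 30 bases on each side and the match in capitals. HBP1 and GTF3C2 come from shared peaks, EXOSC2 and NCOA5 from peaks found only at full length, CNTN1 and CMPK2 from peaks found only after CTD deletion.
HBP1, chr7:107168800-107168866, plus strand: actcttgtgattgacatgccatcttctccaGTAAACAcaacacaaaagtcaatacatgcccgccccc
GTF3C2, chr2:27356827-27356893, minus strand: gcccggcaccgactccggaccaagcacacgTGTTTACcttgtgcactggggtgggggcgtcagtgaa
EXOSC2, chr9:130693614-130693680, plus strand: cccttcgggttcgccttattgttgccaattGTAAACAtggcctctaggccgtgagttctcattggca
NCOA5, chr20:46089994-46090060, minus strand: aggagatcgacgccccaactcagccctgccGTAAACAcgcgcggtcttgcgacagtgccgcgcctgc
CNTN1, chr12:40908126-40908192, plus strand: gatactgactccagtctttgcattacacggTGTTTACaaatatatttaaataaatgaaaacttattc
CMPK2, chr2:6866651-6866717, minus strand: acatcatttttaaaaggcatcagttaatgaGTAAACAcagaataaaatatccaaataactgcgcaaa

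GTF3C2 encodes a subunit of the transcription factor TFIIIC, and its match lay 4 bp from the summit of a full-length peak with −log10 p values of 9.85 and 13.5. EXOSC2 encodes a subunit of the RNA exosome; its match lay 6 bp from the summit, with 8.14 and 15.1. NCOA5, a coactivator gene, had 37 bp and 8.14 and 13.9. HBP1 encodes an HMG-box repressor, and there the match lay 265 bp from the summit, with 10.2 and 19.4. At CMPK2, a mitochondrial nucleotide kinase gene, the distance was 46 bp with 6.92 and 7.83, and at CNTN1, a neuronal adhesion gene, 860 bp with 6.95 and 6.94. The 2 windows from peaks found only after deletion have a G+C content of 35% (CNTN1) and 32.7% (CMPK2), whereas the 4 others have between 54.7% and 66.3%.

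A forkhead match was present in 31 of the 215 windows overlapped in both lists, 14.4% (10.3 to 19.7), and in 22 of the 154 overlapped only after deletion, 14.3% (9.63 to 20.7). The share was 6.63% (5.45 to 8.04) of the windows overlapped only at full length and 4.80% (4.53 to 5.09) of all windows. In windows of at least 60% G+C the shares were 4.96% (3.75 to 6.53) at full length alone, 9.09% (4.47 to 17.6) in both, 7.50% (2.58 to 19.9) after deletion alone and 1.68% (1.47 to 1.93) in windows without a peak. In windows under 50% G+C they were 16.2% (10.6 to 24.0) at full length alone, 12.2% (6.53 to 21.5) in both, 17.9% (11.004 to 27.9) after deletion alone and 11.9% (10.99 to 12.98) without a peak, with overlapping intervals. The AP-1 motif TGANTCA, searched with C or G at the N (neither motif contains the other), was in 3.74% (2.87 to 4.86) of the windows of full length alone, 11.2% (7.62 to 16.1) of those in both, 11.7% (7.52 to 17.7) of those after deletion alone and 4.01% of all. The AP-1 shares were not divided by G+C content, in which these classes of windows differ, so the part of base composition in them was not tested. A match describes letters in a window and does not show which protein bound there.

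The lists also differed in the kind of neighbourhood that was occupied, counted over all peaks, those at promoters included. CTD-deleted peaks lay more often in gene-poor regions, defined as at most 2 protein-coding genes within 500 kb of the summit: 38.2% (37.8 to 38.6) against 32.6% (32.1 to 33.0) at full length, a difference of 5.65 points (5.01 to 6.29). The shared peaks stood in between at 35.5% in either list, with 28.8% (28.1 to 29.5) for peaks found only at full length and 40.1% (39.6 to 40.7) for those found only after deletion. The ratio of peak numbers, CTD deleted over full length, was 1.35 (1.33 to 1.36) on these chromosomes and was lower at each step up in gene density. Its level rests on the unequal limits of the lists, for over all peaks it was 4.38 at the stricter IDR limit and 7.81 at an IDR of at most 0.01; whether a ratio lies above or below 1 is therefore a statement about the lists as deposited, here and by chromosome and gene length. It was 1.60 (1.54 to 1.67) where no gene lay within 500 kb, 1.41 (1.37 to 1.45) with 3 to 5 genes, 1.07 (1.03 to 1.11) with 11 to 20 and 0.843 (0.793 to 0.897) with 21 or more. Sharing moved as well: 61.2% of the full-length peaks in gene-free neighbourhoods were shared, but 41.5% in the densest. In the CTD-deleted list the order was the opposite, with 38.3% and 49.4%. Shared peaks were nearly equal in number in both lists, 2526 and 2537 in gene-free neighbourhoods and 926 and 928 in the densest. The 2 shares are therefore tied to the ratio of peak numbers and are not a separate result. The gene-poor difference was 4.93 points at the stricter IDR limit and 6.40 with lists of equal length. When all annotated genes were counted (59098 against 19974 protein-coding) it was 0.636. The limit was kept at 2 genes, so that value covers a narrower kind of region.

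**Figure D2:**
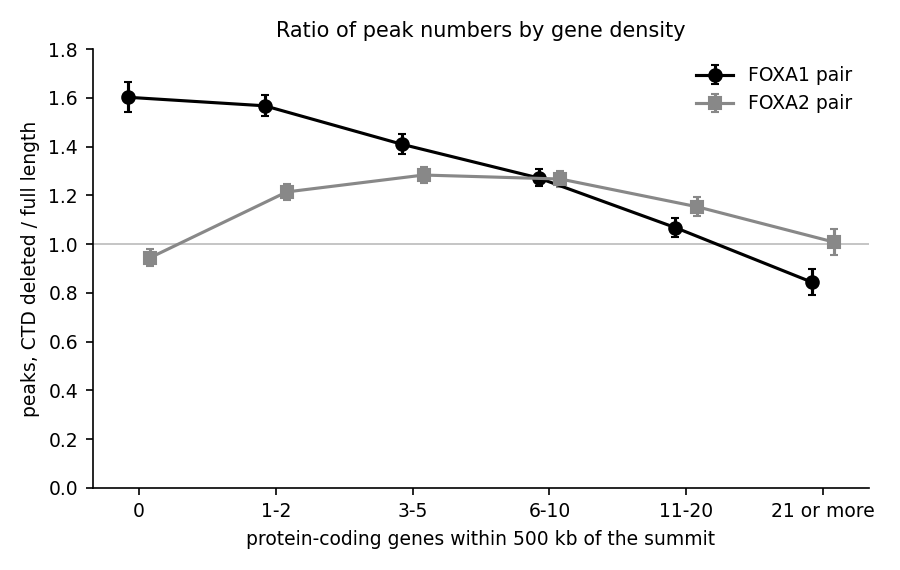
Ratio of peak numbers, CTD deleted over full length, by the number of protein-coding genes within 500 kb of the summit, for the FOXA1 pair (black circles) and the FOXA2 pair (grey squares), with 95% intervals for counting error. The FOXA1 ratio goes from 1.60 without genes to 0.843 with 21 or more, and the FOXA2 ratio from 0.944 over 1.28 to 1.01.

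By chromosome, the CTD-deleted list was the shorter one on chromosome 19 (179 against 256 peaks) and chromosome 22 (624 against 709), ratios of 0.699 (0.578 to 0.846) and 0.880 (0.790 to 0.980). Chromosome 17 (1.04) and chromosome 20 (1.08) had intervals that include 1. The ratio was highest on X, at 1.71 (1.52 to 1.93), followed by chromosome 4 at 1.53 and chromosome 13 at 1.53. Chromosome 19 has the most protein-coding genes per Mb, 24.8, and chromosome 13 the fewest, 2.96. Over the 23 chromosomes, which share the same 2 lists, the ratio and the gene density had a Spearman coefficient of -0.66 and a Pearson coefficient of -0.77. At the stricter IDR limit these were -0.54 and -0.39, and all 4 are given as a description. On chromosome 19, 16.02% of the full-length peaks lay at promoters, against 2.23% of the CTD-deleted ones.

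**Figure D3:**
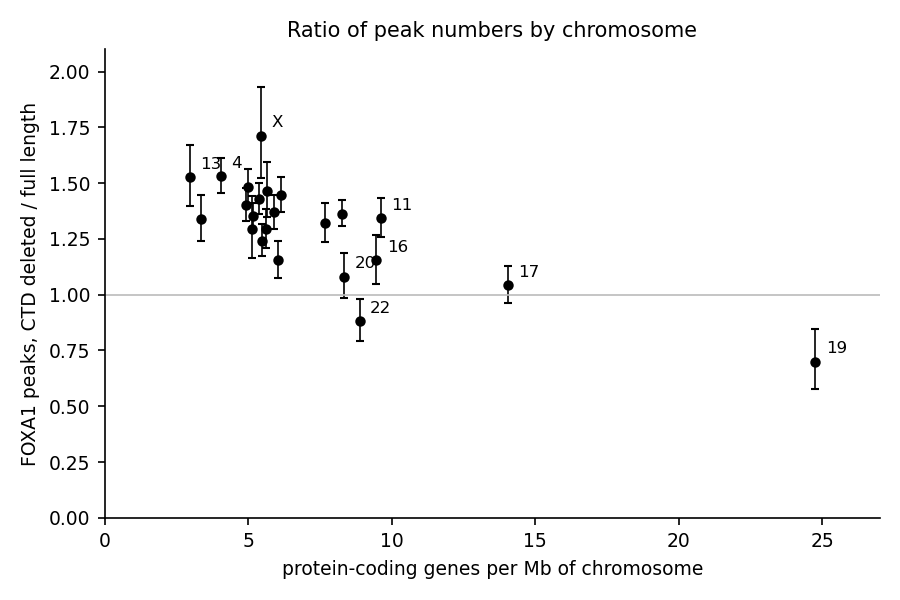
Ratio of FOXA1 peak numbers, CTD deleted over full length, against protein-coding genes per Mb for 23 chromosomes, with 95% intervals for counting error. Chromosome 19, at 24.8 genes per Mb, has a ratio of 0.699, and X has the highest, 1.71.

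Gene bodies held similar shares of both lists. A summit lay between the ends of a protein-coding gene for 46.2% (45.7 to 46.7) of the full-length and 44.8% (44.4 to 45.3) of the CTD-deleted peaks, where such genes cover 41.6% of the chromosomes up to their last gene. The difference was -1.40 points (-2.07 to -0.735). At the stricter IDR limit in both lists it was -0.800 points, with an interval of -1.81 to 0.209 that includes 0. It was 0.448 points at an IDR of at most 0.01, with an interval of -1.33 to 2.21. Peaks found only at full length (46.2%) and shared ones (46.2%) differed by -0.0343 points (-1.05 to 0.986). Peaks found only after deletion were in genes less often, 43.8%, which is a difference of -2.40 points from the shared ones (-3.28 to -1.51); this difference too was not seen at an IDR of at most 0.01 (0.259, with an interval of -1.71 to 2.22). The median summit lay 52.2 kb (51.0 to 53.5) from the nearest gene end at full length and 70.6 kb (69.2 to 72.2) after deletion. Exons and introns were not told apart, since the annotation used gives only the ends of genes.

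Of the 19974 protein-coding genes, 6553 (32.8%) held a full-length summit and 6813 (34.1%) a CTD-deleted one. Both lists occupied 5232 genes (26.2%), full length alone 1321 (6.61%) and the CTD-deleted list alone 1581 (7.92%). Genes occupied in both were long, with a median of 97.1 kb (92.8 to 100.2), against 33.1 kb (31.1 to 35.1) for full length alone, 46.2 kb (43.6 to 48.6) for CTD deleted alone and 12.0 kb for genes without a summit. Occupancy by 1 list mostly rested on a single peak, in 86.1% of the genes of full length alone and 75.8% of those of the CTD-deleted list alone. These counts follow the limits of the lists: at the stricter IDR limit 199 genes were occupied at full length alone and 3886 after deletion alone.

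The surplus of CTD-deleted peaks grew with gene length. In the 5658 genes under 10 kb there were 295 full-length and 239 CTD-deleted summits, a ratio of 0.810 (0.683 to 0.961). The ratio was 1.02 (0.945 to 1.10) between 10 and 30 kb, 1.30 (1.26 to 1.35) between 100 and 300 kb and 1.60 (1.49 to 1.72) in the 69 genes of 1 Mb or more. Per length, full-length summits stayed between 11.1 and 14.8 per Mb of gene over these classes, while CTD-deleted summits went from 9.01 per Mb in the shortest to 20.1 per Mb in the longest. In 62 of the 69 longest genes the CTD-deleted list had more summits, and in 2 the full-length list had more. In 5 they had equal numbers, genes without any summit included.

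The largest surplus after CTD deletion was in CTNNA3 (chromosome 10, 65912523 to 67763594), which encodes an alpha-catenin of cell junctions. It held 51 full-length and 88 CTD-deleted summits, with 41 shared. EYS, a gene of photoreceptors (chromosome 6, 63719980 to 65707226), had 48 and 82. DLG2, which encodes a synaptic scaffold (chromosome 11, 83455012 to 85628373), had 35 and 69. The cadherin gene CDH18 (chromosome 5, 19471296 to 20575713) had 28 and 57. PCDH15, a protocadherin gene of the inner ear and retina (chromosome 10, 53802771 to 55627942), had the most of all in both lists, 68 and 95. Also among the first 10 were the adhesion gene CADM2 (31 and 55), the latrophilin gene ADGRL3 (22 and 45), CSMD3 (27 and 50) and LINGO2 (41 and 62). Of the genes named here ADGRL3 was the only one under 1 Mb.

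Genes with a surplus at full length were shorter and their surplus was small. KIAA1671 (chromosome 22, 24952716 to 25197448) had 17 full-length and 11 CTD-deleted summits in 245 kb. PLA2G4A, which encodes a cytosolic phospholipase A2 (chromosome 1, 186828949 to 186988981), had 6 and 1. The protein kinase C genes PRKCE and PRKCQ had 12 and 7, and 7 and 2. TCERG1L (chromosome 10, 131092391 to 131311721) had 5 and 0, where 0 allows up to 3. CPLANE1 had 9 and 4, CHLSN 8 and 3, CALN1 10 and 5, CDH23 9 and 4, and LDLRAD4 18 and 13. No gene had a full-length surplus above 6. Genes with most shared peaks were again long: after PCDH15 (44), CTNNA3 (41), CADM2 (27) and EYS (27) came, among others, DLG2 (25), BCAS3 (25) on chromosome 17, the sidekick adhesion gene SDK1 (24), CDH18 (23) and CDH12 (23). SDK1 held 42 summits in either list and BCAS3 39 and 46.

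**Figure D4:**
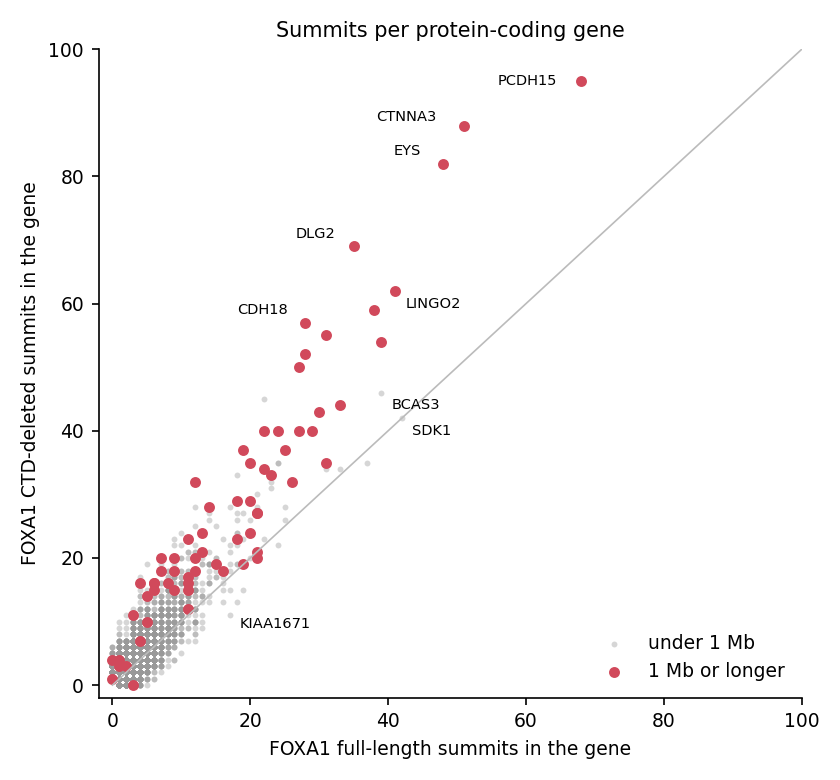
Summits of full-length FOXA1 (x axis) and CTD-deleted FOXA1 (y axis) in each protein-coding gene that held at least 1, with genes of 1 Mb or longer in red and the diagonal in grey. PCDH15 stands at 68 and 95 and CTNNA3 at 51 and 88. Above the diagonal lie 62 of the 69 long genes, a total that includes long genes without a summit, which are not shown.

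Gene groups with a role in FOXA1 biology or in bone cells were read against the background of 32.8% and 34.1% of all genes. Of 20 known FOXA1-linked genes of luminal breast and prostate cells, 7 held a full-length and 8 a CTD-deleted summit, 17 and 26 summits in all. ESR1, the estrogen receptor, had 5 and 12, PGR, the progesterone receptor, 1 and 4, GREB1 4 and 2, and FKBP5 3 and 3; GATA3, TFF1 and KLK3 held 0 in both. Of 20 endoderm and liver genes 5 and 7 were occupied, with 12 summits in each list. HNF4A, a nuclear receptor of liver, had 4 and 4, GATA6 2 and 2, and AFP, the fetal liver protein, 0 and 2. Of 20 osteoblast and mesenchymal genes 6 and 6 were occupied, with 10 and 19 summits. Among them were CDH2 (2 and 5), the osteoblast master regulator RUNX2 (2 and 3) and SOX9 (1 and 1). The shares of these 3 groups, between 25% and 40%, lie near that of all genes, but gene length was not matched. Longer genes were occupied more often. Median lengths were 24.2 kb in the luminal, 15.5 kb in the endoderm and 15.2 kb in the osteoblast group, against 24.2 kb over all genes. The median difference between the lists was 0 summits per gene in each group, as over all genes. This value follows from the empty genes and says nothing about the occupied ones. In the 3 groups 12, 13 and 13 of 20 genes held no summit in either list, and over all genes 11840 of 19974.

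AP-1 and YAP-TEAD genes, most of which encode factors at many enhancers of adherent cells, were occupied in 7 and 8 of 20 cases. WWTR1, the gene of the coactivator TAZ, had 7 and 6 summits, YAP1 1 and 4, ATF3 2 and 2, JUN 1 and 1. Of 20 epithelial junction and transition genes 9 and 7 were occupied, with 17 and 21 summits: TJP1 had 3 and 6, ZEB1 6 and 5, DSP 1 and 3, and ESRP1 2 and 0. Among 20 forkhead genes outside the FOXA group 10 and 9 were occupied, with 23 and 39 summits, of which FOXP1 held 7 and 13 and FOXP2 7 and 13. In 20 very long neuronal and fragile-site genes 19 were occupied in each list, with 388 and 633 summits and a median difference of 10 per gene in favour of CTD deletion. Per Mb of gene this group had 12.2 full-length and 20.0 CTD-deleted summits, while all protein-coding genes had 13.6 and 17.8. The 69 genes of 1 Mb or more had 12.5 and 20.1, so the values of this group are close to those of long genes in general.

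Cytosolic ribosomal protein genes held few summits between their ends, as short genes did in general. Of 20 genes, with a median length of 4.61 kb, RPL3 held 1 full-length summit and none held a CTD-deleted one. Of all genes under 10 kb, 4.95% held a full-length and 4.01% a CTD-deleted summit. Of the 14 with a promoter window, 5 were overlapped at full length (RPL3, RPL4, RPL7A, RPL13A and RPS4X) and 1 after deletion (RPL4, whose promoter is shared with ZWILCH). Over all genes 8.73% and 2.12% of promoters were overlapped, so more promoters at full length is the pattern of all genes too. The forkhead group had 4 of 15 promoters overlapped at full length (FOXJ3, FOXK2, FOXN3 and FOXP1) and 0 after deletion. The AP-1 and YAP-TEAD group had 3 of 14 (FOSL2, JUN and WWTR1) and 2 (FOSL2 and WWTR1). In the luminal, endoderm and osteoblast groups 12, 12 and 11 genes had a promoter window. Of these, 0 were overlapped at full length and 1 in each group after deletion, at MYB, AFP and SPP1. Counts this small were not compared with the shares of all genes.

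Peaks were wider at full length. The median width was 696 bp (691 to 699) against 626 bp (623 to 629) after CTD deletion, and shared peaks were wider than unshared ones in both lists: 725 against 657 bp, and 676 against 589 bp. The difference between the lists was -70 bp as listed, -43 bp when only as many of the strongest CTD-deleted peaks were kept and -160 bp at the stricter IDR limit. Width also followed strength, from a median of 645 bp in the weakest to 788 bp in the strongest bin at full length and from 550 to 738 bp after deletion. The lists covered 28.4 and 34.0 Mb. Widths depend on depth and on the peak caller, and the part of these in the difference was not tested.

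Shared peaks overlap by definition, so their summits are near each other in part by the rule. Outside the longest gene-free stretch of each chromosome, the nearest summits of shared peaks lay a median of 41 bp apart, and 80.2% of the shared full-length summits had a CTD-deleted summit within 100 bp. For unshared peaks, which by the same rule cannot overlap the other list, the median distance to its nearest summit was 16.4 kb (15.96 to 16.84) at full length and 22.2 kb (21.8 to 22.6) after deletion. The lists searched differ in length, 50105 and 37219 peaks, so these distances are not compared. A shared peak within 10 kb was present for 18.7% (18.1 to 19.3) of the unshared full-length and 17.6% (17.2 to 18.1) of the unshared CTD-deleted peaks.

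Runs of neighbouring peaks were formed from both lists pooled, with summits at most 10 kb apart. A shared site adds a peak from each list and so makes a run that holds both lists by itself, and the share of such runs is not given for that reason. Runs of 2 or more peaks from 1 list alone, which hold no shared site, numbered 668 at full length and 1982 after deletion. The unshared peaks outside the longest gene-free stretches are also unequal in number, 16118 and 28384, so these 2 counts are not compared. Among runs with 5 or more peaks 4 came from 1 list, all 4 CTD deleted. By the same rule no run with a shared site could be among them. The longest run, 18 peaks over 61.7 kb, lay on chromosome 17 at 70572343 to 70634084, 392 kb from KCNJ2, a potassium channel gene, with 7 full-length and 11 CTD-deleted peaks, of which 7 in each list were shared. Next came runs of 15 near CDH9 (chromosome 5, 27276940 to 27329097, 4 and 11), in SGMS1, a sphingomyelin synthase gene (chromosome 10, 50542848 to 50594438, 6 and 9), and over LRCH1 and ESD (chromosome 13, 46749246 to 46803538, 8 and 7). A run of 14 lay in LRRTM4 (chromosome 2, 77271481 to 77318556, 6 and 8). The 4 runs of 5 CTD-deleted peaks without a full-length one lay in ABCB1, the drug efflux pump gene (chromosome 7, 87597066 to 87610454), in SAMTOR (chromosome 7, 112837819 to 112851437), and in the stretches nearest to POM121L12 (chromosome 7, 52966367 to 52973276) and RERGL (chromosome 12, 18137817 to 18153154); a run of 4 lay in VAV3 (chromosome 1, 107820625 to 107840664). None of these 5 held a peak stronger than a −log10 p of 10.2. Over all peaks, 4.43 points more of the CTD-deleted than of the full-length peaks lay in runs of 3 or more of their own list (3.98 to 4.88). With equal numbers of the strongest peaks the difference was 0.446, with an interval of -0.00889 to 0.901. It was 11.5 at the stricter IDR limit and 4.79 at an IDR of at most 0.01.

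The FOXA2 lists, which played no part in splitting the FOXA1 peaks, give an outside reading of the classes. Of the shared full-length peaks 76.2% (75.6 to 76.8) overlapped a peak of at least 1 of the 2 FOXA2 lists. Among unshared peaks the share was 41.7% (40.9 to 42.4) at full length and 49.5% (48.9 to 50.1) after deletion, a difference of -7.80 points (-8.75 to -6.85). This order depended on the limits, for at the stricter IDR limit the difference was 8.11 points in the other direction. Peaks found only after CTD deletion overlapped CTD-deleted FOXA2 slightly more often (36.3%, 35.8 to 36.9) than full-length FOXA2 (33.4%, 32.8 to 33.9). For peaks found only at full length these shares were 27.6% and 27.7%, and for shared full-length peaks 59.0% and 62.5%. The CTD-deleted FOXA2 list is the longer one, 52866 against 44637 peaks, with a median width of 619 against 575 bp. Taken from the FOXA2 side, FOXA1 sites of full length alone made up 10.2% of the full-length and 8.63% of the CTD-deleted FOXA2 peaks, and those of CTD deletion alone 21.9% and 20.1%. Promoter peaks found only at full-length FOXA1 overlapped the CTD-deleted FOXA2 list in 38.1% (35.1 to 41.1) and the list of SOX2 fused to the FOXA2 CTD in 11.7% (9.89 to 13.9), against 26.9% and 2.90% for such peaks elsewhere. The other classes also had higher overlap at promoters: with the fusion list, shared full-length peaks had 13.4% against 3.26% elsewhere and peaks found only after deletion 10.5% against 2.78%. With CTD-deleted FOXA2, peaks found only after deletion had 56.4% (47.9 to 64.5) at promoters against 36.2%. FOXA3 with its CTD deleted overlapped 14.5% of the shared and 4.88% and 5.71% of the unshared peaks of full length and CTD deletion.

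The FOXA2 pair, 4 samples of the same design, was used to see whether the pattern was that of the FOXA1 pair. FOXA2 peaks went from 2.64% at promoters at full length to 1.85% after deletion, a change of -0.790 points (-0.979 to -0.603). The FOXA1 difference lay -1.98 points from it (-2.26 to -1.71). The gene-poor share went the opposite way for FOXA2, from 33.8% to 31.6%, or -2.24 points (-2.83 to -1.65), and the 2 differences were 7.89 points apart (7.02 to 8.76). Genes of 1 Mb or more held 0.609 points more of the FOXA1 peaks after deletion (0.362 to 0.854) and -0.134 points for FOXA2 (-0.355 to 0.0845). The gene-body difference was -2.49 points in the FOXA2 pair. These intervals hold no spread between libraries, and the FOXA2 lists have IDR limits of their own, so whether the pairs differ beyond that spread was not tested.

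**Figure D5:**
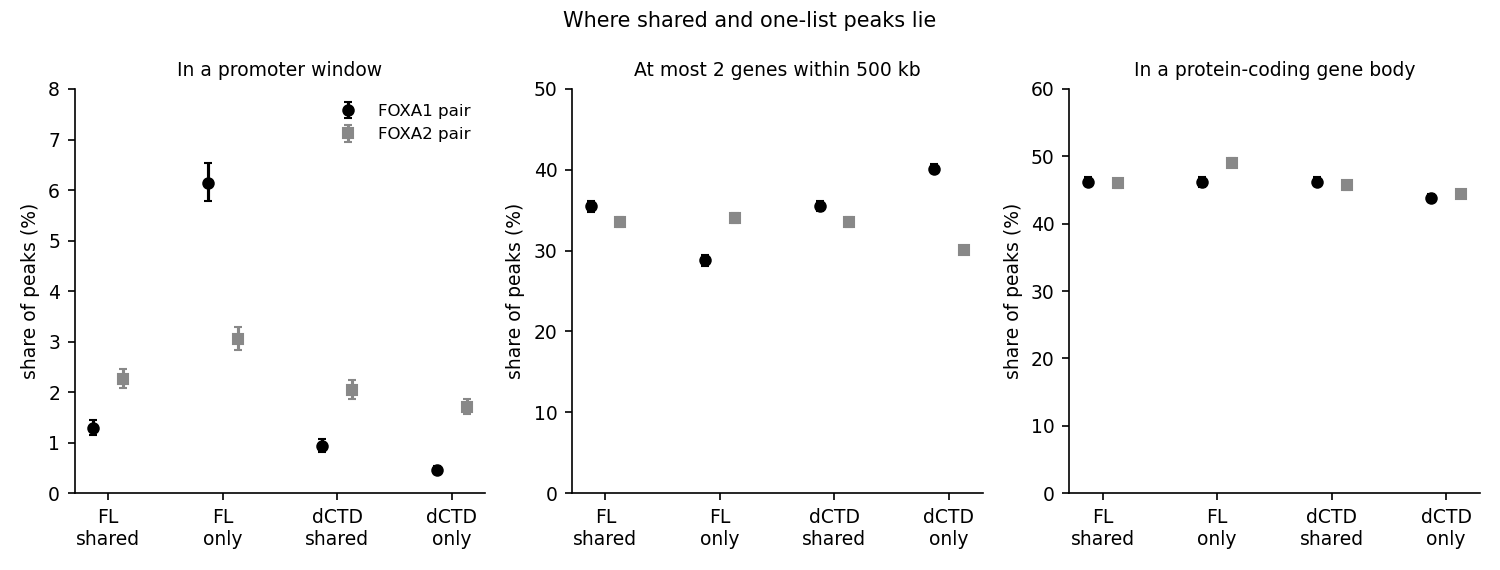
Share of peaks in a promoter window (left), with at most 2 protein-coding genes within 500 kb (middle) and in a protein-coding gene body (right), for shared and one-list peaks of full-length (FL) and CTD-deleted (dCTD) factors, FOXA1 pair in black and FOXA2 pair in grey, with 95% intervals for counting error. FOXA1 peaks found only at full length stand at 6.15% in the left panel, while the other classes of both pairs lie between 0.455% and 3.05%.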

How the data were processed

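Flag ChIP-seq was done in U2OS cells; groups were taken from sample titles. The combined lists have no header; their 20 columns were read in the layout of the IDR program. The IDR scores (read as 125 times log2 of 1 over the IDR, up to 1000) and the −log10 p values of each replicate, which do not say which replicate is which, were used as the authors deposited them. The submitters' processing notes name the build hg38, Bowtie2 2.4.4, SAMtools 0.1.18 and MACS2, with no roles; control, parameters and IDR limits are not given in the sources used here. Gene ends and promoter windows came from RefSeq tables of GRCh38.p14. Overlaps, distances and intervals were computed in Python 3.11.15 (numpy 2.4.6, pandas 2.3.3, scipy 1.17.1) and checked on simulated lists.

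The members, gene lists, motifs and rules were chosen with earlier results of these data known. Named genes are the 10 with the largest surplus in each direction and the 10 with most shared peaks. Named promoter peaks are the 3 strongest per class with the summit in a window. Named runs are the 5 with most peaks, pooled and of 1 list, outside the longest gene-free stretches. The printed forkhead matches, and the named members of gene groups, were chosen after their values were seen. Alternatives were a stricter IDR limit, an IDR of at most 0.01, equal numbers of peaks, 50% reciprocal overlap, all annotated genes, runs within 50 kb and leaving out the gene-free stretches (164.4 Mb). Peaks on other contigs were left out. A few genes that these rules select are not reported here.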

Additional observations from a re-analysis of the deposited data

Results flagged for a closer look

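The comparisons left out peaks that did not lie on a chromosome. There were 311 such peaks on 134 contigs in the full-length list and 432 on 151 contigs in the CTD-deleted list, both above the 3 that a count of 0 allows, with no control list to set beside them. Chromosome Y held 2 peaks in each list, which is under that limit.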

How the results depend on the processing

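Alternatives gave 77 values for 16 results. Of these, 33 fell inside the 95% interval reported above, or for gene counts within a factor of 1.5; 40 moved further and 4 changed direction. Not counted among the 4 is the gene-body difference between unshared and shared full-length peaks (-0.0343), whose interval includes 0 and which was 0.360 with equal numbers of peaks, 0.481 with reciprocal overlap and 0.144 with all annotated genes. Differences are CTD deleted minus full length unless said otherwise, and the causes were not tested, except that a stricter limit leaves fewer peaks by construction. The alternatives for gene-poor regions, long genes and unshared promoter peaks were added after seeing the data. With the stricter IDR limit in both lists the ratio of peak numbers was 4.38, and 78.2% of the full-length and 17.9% of the CTD-deleted peaks were shared. The promoter difference was -2.16 points, that between unshared and shared full-length promoter peaks 5.63, and that between unshared and shared full-length peaks in gene bodies -2.01. The width difference was -160 bp, the run difference 11.5 points, the gene-poor difference 4.93 and the long-gene difference 0.874. Genes occupied by 1 list numbered 199 at full length and 3886 after deletion, and the FOXA2 overlap of unshared peaks (full length minus CTD deleted) changed direction to 8.11. With an IDR of at most 0.01 these were a ratio of 7.81, shares of 80.1% and 10.3%, promoter differences of -1.86 and 5.88, a width difference of -176 bp, 4.78 for gene-poor and 1.47 for long genes, 75 and 3731 genes, a median distance to gene ends larger by 16273 bp, and 6.97 for the FOXA2 overlap, again reversed. Gene-body differences reversed to 0.448 between the lists and 0.259 between unshared and shared CTD-deleted peaks, both with intervals that include 0. Equal numbers of the strongest peaks gave shares of 46.8% and 46.9%, 4.29 points for unshared promoter peaks, 20504 bp for the distance, -43 bp for width, 0.446 for runs, 6.40 for gene-poor regions and -10.1 for the FOXA2 overlap. An overlap of 50% of both peaks gave shares of 49.8% and 37.0% and a FOXA2 difference of -5.65. With all annotated genes the distance difference was 3911 bp, and 2397 and 3197 genes were occupied by 1 list. The gene-poor difference, with the limit kept at 2 genes, was then 0.636. The run difference was 3.93 outside the gene-free stretches and 11.5 for runs within 50 kb. The promoter, gene-poor, long-gene, distance and width differences kept their direction under every alternative run for them. No paired analysis was possible because each group has 1 combined list; for the same reason no replicate could be left out. Depth is unknown, so a peak missing from a list was not detected at that list's limit.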
